A study of Mus musculus with 24 samples.

Results

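The Fos, Jun and Egr transcription factors were followed through 24 expression arrays of mouse hippocampus and amygdala. The family was taken as 10 genes, Fos, Fosb, Fosl2, Jun, Junb, Jund, Egr1, Egr2, Egr3 and Egr4, and as all probe sets annotated with exactly 1 of these symbols. These were 15 of the 45101 probe sets on the array. A filter that removed the dimmest 40% of probe sets left 12 of the 15, with at least 1 probe set for each of the 10 genes, among 27022 probe sets tested. The animals descended from crossed C57BL/6J and A/J mice, both inbred strains, in a selection experiment on contextual fear conditioning, a test in which a mouse freezes in a place where it was shocked before. The 4 groups held 6 arrays each: amygdala of animals labelled high freezing, amygdala of animals labelled low freezing, hippocampus of animals labelled high freezing and hippocampus of animals labelled low freezing. All 24 arrays carried total RNA of whole dissected tissue. The labels do not say whether 1 array stands for 1 animal or for a pool, nor the age of the mice or the time between behaviour and dissection, so each p refers to the variation among these arrays, which may be partly technical. In whole tissue, fewer cells of a type and less RNA per cell cannot be told apart.

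Proteins of the Fos family pair with proteins of the Jun family to form the transcription factor AP-1, which binds a short palindromic site near its target genes. The Egr proteins bind GC-rich sites through zinc fingers. Most of these genes are immediate early genes: in neurons their transcription starts within minutes of calcium entry or growth factor signalling, through the factors CREB, SRF and Elk bound at their promoters, and it does not need new protein synthesis. In hippocampus and amygdala their mRNA and protein are widely used to mark neurons that were recently active, for example after fear learning. Jund differs from the others of its family in being made at a steady level in most cells.

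The promoters of 4 of the genes are shown because the r between arrays of one group was above 0 in all 4 groups for each pair of Fos, Junb and Egr2, and of both signs for Jun with Fos, Junb and Egr2. The r of Fosb with Fos, Junb and Egr2 was also above 0 in all 4 groups, and its window is not shown. None of these correlations passed the test after adjustment, and the difference of Jun from the others was not tested. Each window runs from 250 bases before to 50 bases after an annotated start, 5′ to 3′ on the strand of the gene, in the RefSeq annotation of GRCm38.p6. It lies at chr12:85473640-85473939 (plus strand) for Fos, at chr8:84978699-84978998 (minus strand) for Junb, at chr10:67537619-67537918 (plus strand) for Egr2 and at chr4:95052173-95052472 (minus strand) for Jun. Capitals mark matches to TGACG on either strand, the core of the site bound by CREB, and in Egr2 also a CArG box, the site bound by SRF.
Fos: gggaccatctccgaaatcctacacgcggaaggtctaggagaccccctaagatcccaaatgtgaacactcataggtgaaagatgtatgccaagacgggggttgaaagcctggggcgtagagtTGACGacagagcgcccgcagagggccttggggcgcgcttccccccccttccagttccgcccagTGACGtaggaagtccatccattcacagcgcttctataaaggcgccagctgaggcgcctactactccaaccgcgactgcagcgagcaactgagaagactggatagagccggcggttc
Junb: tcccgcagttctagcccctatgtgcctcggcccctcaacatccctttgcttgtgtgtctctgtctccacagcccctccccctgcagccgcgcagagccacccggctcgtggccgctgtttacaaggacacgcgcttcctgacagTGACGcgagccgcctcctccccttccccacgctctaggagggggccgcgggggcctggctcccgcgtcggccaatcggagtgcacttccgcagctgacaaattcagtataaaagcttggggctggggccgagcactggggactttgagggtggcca
Egr2: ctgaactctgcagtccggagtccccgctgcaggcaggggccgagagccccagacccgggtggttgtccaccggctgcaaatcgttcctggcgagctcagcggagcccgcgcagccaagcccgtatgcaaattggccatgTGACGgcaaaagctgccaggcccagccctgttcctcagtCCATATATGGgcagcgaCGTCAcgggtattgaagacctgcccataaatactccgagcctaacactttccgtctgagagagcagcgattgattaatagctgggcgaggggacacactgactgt
Jun: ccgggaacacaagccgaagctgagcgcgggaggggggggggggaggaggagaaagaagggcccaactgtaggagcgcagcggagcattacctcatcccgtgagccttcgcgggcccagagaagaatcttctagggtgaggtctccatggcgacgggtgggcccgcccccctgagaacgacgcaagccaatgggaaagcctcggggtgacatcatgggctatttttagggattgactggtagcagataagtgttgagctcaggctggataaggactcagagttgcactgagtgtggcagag

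The Fos window held the TGACG core at 129 and at 66 bases upstream of the start. In the Junb window it lay 106 bases upstream. The Egr2 window held it at 111 and 55 bases upstream, on either side of a CArG box 72 bases upstream. Egr2 had more than 1 window, and they differed. Its window at chr10:67535249-67535548 held no match to the motifs searched. The one at chr10:67537316-67537615 held a CArG box, also 72 bases upstream, but no TGACG. The rest overlapped the window shown and held the same matches. The Jun window held no exact match to the motifs searched. It did hold TGACATCA, which differs by 1 base from the searched TGACGTCA and was not counted. Of the 10 genes, 8 had a window in the table (12 windows in all), and Egr1 and Egr3 had none there. At least 1 window of 5 genes (Fos, Fosb, Junb, Egr2 and Egr4) held TGACG, which also occurred in 20.8% of all 32851 mouse promoter windows. The full palindrome TGACGTCA, found in 1.79% of all windows, and the AP-1 site TGANTCA, found in 7.81%, occurred in none of the 12. The Egr site GCGNGGGCG, present in 5.55% of all windows, was found in Fosb and Fosl2. A CArG box occurred in 1.63% of all windows and, of the 8 genes with a window, in Egr2. Sites farther than 250 bases upstream, and any site of Egr1 and Egr3, were not searched. Both strands were read, and a match is only a match of letters.

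Intensity was deposited as 1 linear value per probe set and array. The mean of each array without its highest and lowest 2% was 149.96 in all 24 arrays, and array medians lay between 36.9 and 43.6 intensity units. The tissue labels were set against marker genes. Of the 10 markers of dentate granule cells, the summed intensity was 2507 to 3079 over the 12 amygdala arrays and 5516 to 6332 over the 12 hippocampus arrays, and 9 of the 10 were lower in amygdala. Of the 10 measured markers of central amygdala and striatum all were higher in amygdala, with summed intensities of 6720 to 12596 in amygdala and 1176 to 1532 in hippocampus. The markers of basolateral amygdala and claustrum went against the amygdala label as a sum, at 1055 to 1989.5 in amygdala and 2857 to 3449 in hippocampus: of 7 measured, 3 were higher in amygdala (Otof, Nr2f2 and Cyp26b1) and 4 lower (Rspo2, Lmo3, Neurod6 and Grp), with a median log2 difference of -0.92. Markers of other sources also differed between the regions: 9 of 9 for choroid plexus and 8 of 8 for oligodendrocytes were higher in amygdala. For thalamus and hypothalamus 6 of 10 were higher there and 2 lower. That list shares Prkcd with the list of central amygdala and striatum. For excitatory neurons 6 of 7 were lower in amygdala and 1 higher. The part of these sources in the differences of the family was not tested.

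The genes of the family differed in level between the regions, and not all the same way. Fosl2, Jun, Junb and Egr3 were lower in amygdala than in hippocampus, Jund was higher, and Fos, Fosb, Egr1, Egr2 and Egr4 were not called different. In limma's test on log2(intensity + 16), adjusted over all 27022 probe sets, 5 of the 12 probe sets were lower in amygdala and 1 was higher at an adjusted p under 0.05. Such calls were common in this comparison: 24.1% of all probe sets tested were called lower in amygdala and 27.1% higher (6522 and 7310 probe sets; 8605 and 5584 if each array is centred on its median). The median log2 difference over the 10 genes was -0.20, against 0.04 over the 12471 genes tested.

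**Figure D1:**
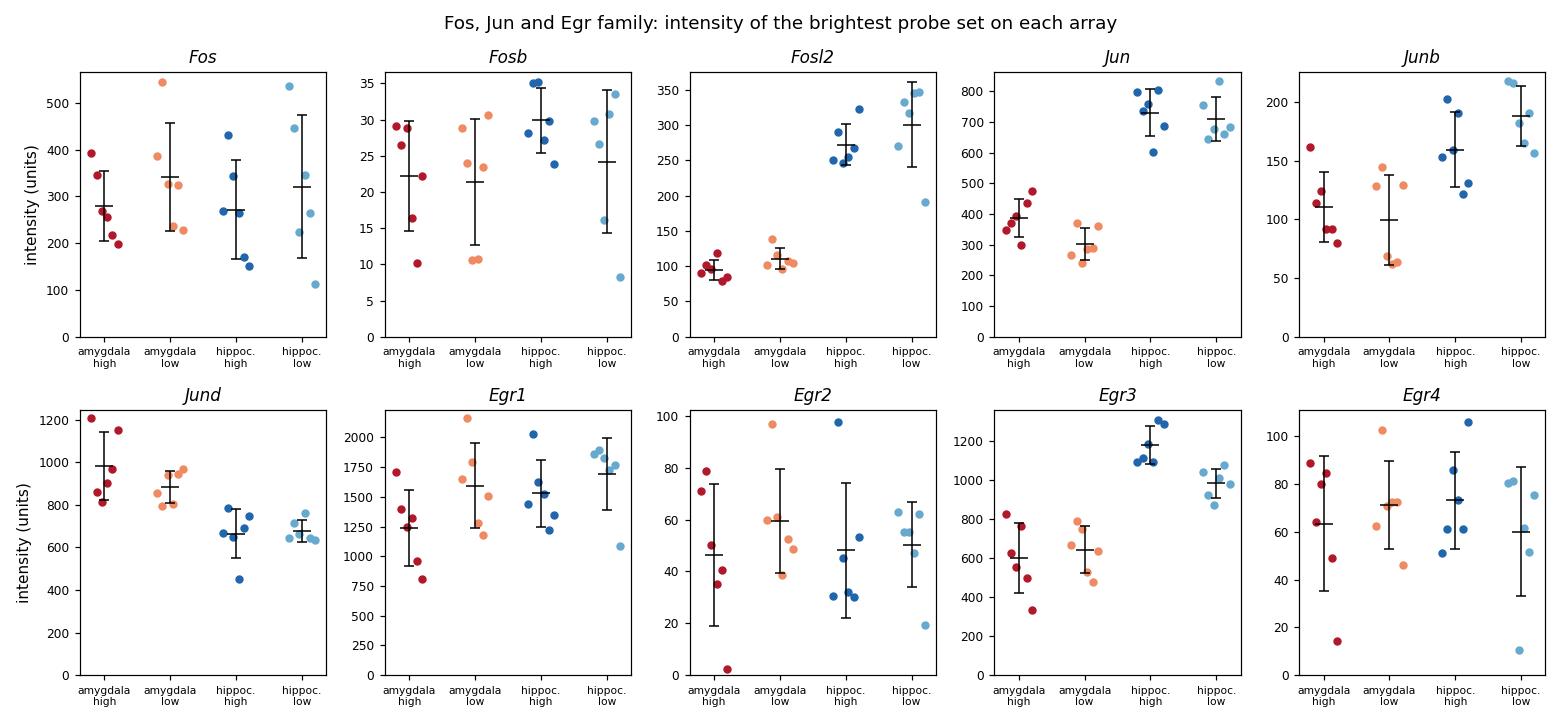
Intensity (linear units) of the brightest probe set of each of the 10 genes on all 24 arrays, 1 panel per gene, with a bar for the group mean and whiskers of 1 SD (n = 6). Fosl2, Jun and Egr3 lie lower on every amygdala array than on every hippocampus array, Jund lies higher, and the groups overlap for Fos, Fosb, Junb, Egr1, Egr2 and Egr4.

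In the Fos family, Fosl2, whose protein Fra-2 is an AP-1 partner of the Jun proteins, had the largest regional difference of the 10 genes. Its intensity was 78.7, 102 and 139 (lowest, median and highest of 12 arrays) in amygdala and 191, 279.8 and 347 in hippocampus. The groups did not overlap, and the difference was 2.53-fold lower in amygdala (log2 difference -1.34 ± 0.08 SE, adjusted p = 2.42e-14). No overlap with the lower values in amygdala was found for 6.01% of all probe sets tested. Fos itself spanned 199 to 545 in amygdala, with a median of 297, and 114 to 535 in hippocampus, with a median of 267. These ranges overlapped almost entirely, with a log2 difference of 0.13 ± 0.19 (SE, adjusted p = 0.600, 95% confidence interval -0.26 to 0.52). Fosb, the partner gene whose shortened form accumulates with repeated stimulation, was dim, with a mean of 24.4 intensity units against a lowest mean of 23.4 among the probe sets kept, and its log2 difference was -0.19 ± 0.13 (SE, adjusted p = 0.225). The second probe set of Fosl2 was left out by the filter, at 22.3 ± 6.88 in amygdala and 24.1 ± 14.0 in hippocampus (SD, n = 12 arrays each).

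The Jun family held differences of both signs. Jun, the main partner of Fos in AP-1, measured 241, 354 and 474 in amygdala and 602, 712 and 834 in hippocampus. Every amygdala array lay below every hippocampus array, and the gene was 2.07-fold lower in amygdala (log2 difference -1.05 ± 0.07 SE, adjusted p = 4.17e-13). The second probe set of Jun gave 203, 255 and 299 in amygdala and 509, 642 and 672 in hippocampus, also without overlap, and was 2.31-fold lower in amygdala (adjusted p = 1.39e-16). Junb, a Jun protein that activates AP-1 sites more weakly than Jun, measured 62.0, 103 and 161 in amygdala and 121, 173 and 218 in hippocampus. Its ranges overlapped and it was 1.60-fold lower in amygdala (log2 difference -0.68 ± 0.12 SE, adjusted p = 2.62e-05). Jund went the other way, at 793, 923 and 1208 in amygdala and 451, 667 and 783 in hippocampus. It was 1.38-fold higher in amygdala with no overlap (log2 difference 0.47 ± 0.07 SE, adjusted p = 3.15e-06), as were 7.16% of all probe sets tested. The second probe set of Jund did not pass the filter and read 18.0 ± 9.34 in amygdala and 13.7 ± 4.46 in hippocampus (SD, n = 12 arrays each).

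Of the Egr genes, Egr3, which acts downstream of calcium and growth factor signals in neurons, had a regional difference. It measured 335, 632 and 825 in amygdala and 872, 1083 and 1308 in hippocampus. The arrays of the regions did not overlap, and Egr3 was 1.76-fold lower in amygdala (log2 difference -0.81 ± 0.10 SE, adjusted p = 5.05e-08). Its second probe set was below the filter, at 17.6 ± 10.1 in amygdala and 25.4 ± 12.8 in hippocampus (SD, n = 12 arrays each). Egr1, the gene of the family most used as a marker of neuronal activity besides Fos, measured 812, 1360 and 2162 in amygdala and 1088, 1673 and 2031 in hippocampus. The ranges overlapped, and the log2 difference of -0.21 ± 0.11 (SE) had an adjusted p of 0.125. The adjusted p of Egr1 was under the threshold in 3 alternatives: 0.0409 after median centring, 0.0487 without amygdala high array 7 and 0.0328 without hippocampus low array 6. Egr2 and Egr4, both dimmer, had log2 differences of 0.03 ± 0.20 and 0.02 ± 0.19 (SE) with adjusted p of 0.907 and 0.941, and both differences turn negative after quantile normalization or median centring. The second probe set of Egr2 gave 0.05 ± 0.20 (SE, adjusted p = 0.874).

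**Figure D2:**
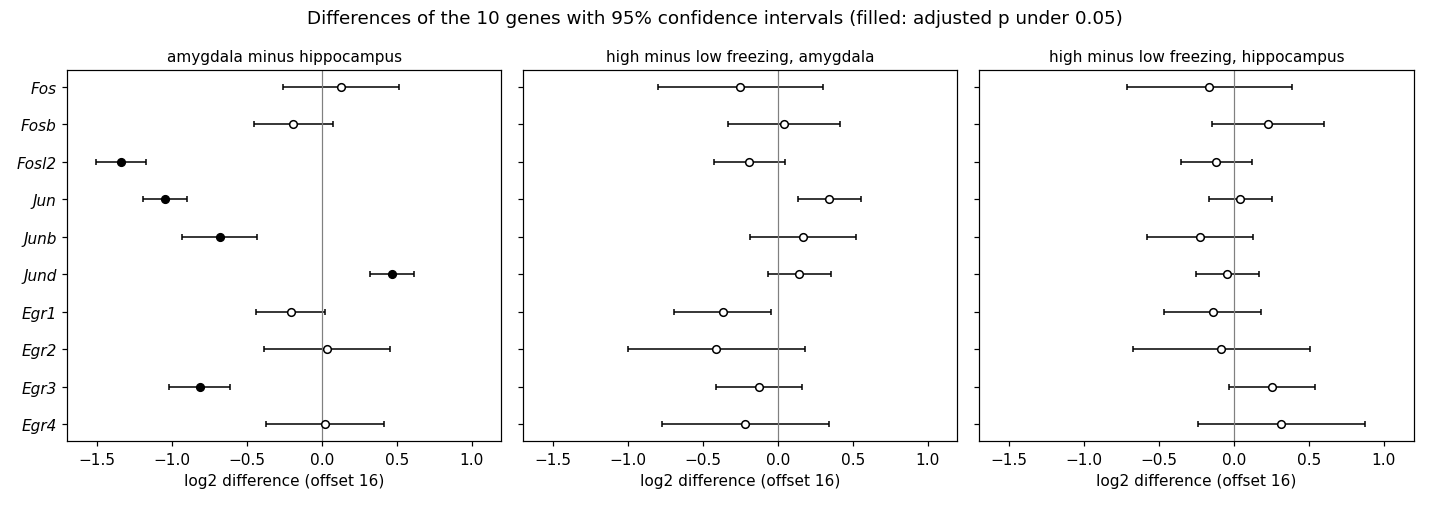
Log2 differences of the brightest probe set of each of the 10 genes, on log2(intensity + 16), with 95% confidence intervals from limma: amygdala minus hippocampus (left), high minus low freezing in amygdala (middle) and in hippocampus (right). Filled points passed an adjusted p of 0.05 over all 27022 probe sets: 5 genes between the regions, from -1.34 for Fosl2 to 0.47 for Jund, and none in either freezing comparison.

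Other genes of the same pathway also differed between the regions in both directions. Of 45 measured early-response genes outside the family, 13 were higher and 16 lower in amygdala at their brightest probe set, with a median log2 difference of -0.06. Over all 12471 genes, 31.6% were higher and 24.6% lower. The 6 of the 45 with the smallest p included Nr4a2 and Nr4a3, nuclear receptors of the same family as Nr4a1, at 6.01-fold and 3.42-fold lower in amygdala. Nr4a2 averaged 107 in amygdala and 685 in hippocampus. Bdnf, a neurotrophin induced by activity, was 4.97-fold lower (adjusted p = 4.81e-16), and Ptgs2, which encodes an inducible cyclooxygenase, was 3.49-fold lower. Plk2, a kinase that acts at synapses, was 2.09-fold lower, whereas Scg2, the secretory granule protein secretogranin II, was 1.48-fold higher (adjusted p = 1.62e-13). Arc, a synaptic protein gene induced together with Fos, averaged 175 in amygdala and 304 in hippocampus and was 1.67-fold lower (adjusted p = 7.30e-04).

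Of 12 measured partners and co-regulators of AP-1 and Egr proteins, 4 were higher and 4 lower in amygdala. Cebpb, a leucine zipper factor that can pair with AP-1 proteins, was 2.65-fold lower (adjusted p = 1.21e-17). The co-repressors of Egr proteins split: Nab1 was 1.32-fold higher in amygdala and Nab2 was 1.32-fold lower. Ddit3, another leucine zipper factor, was 1.47-fold higher, and Jdp2 and Atf2, both partners of Jun proteins, were 1.26-fold and 1.12-fold lower. Of 22 measured upstream factors and kinases, 6 were higher and 12 lower in amygdala, with a median log2 difference of -0.36. Camk2a, a calcium-dependent kinase of excitatory neurons, averaged 1500.1 in amygdala and 4185 in hippocampus, 2.80-fold lower (adjusted p = 8.42e-15). The CREB co-activator Crtc1 was 1.68-fold lower, the SRF co-activator Mrtfa 1.5-fold lower, and the factors Mef2d and Mef2a 1.43-fold and 1.34-fold lower. The SRF partner Elk4 was 1.44-fold higher (adjusted p = 3.09e-09).

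None of the family passed the test between high and low freezing animals, in either region. In amygdala, 0 of 12 probe sets were called, where 0.0555% of all probe sets tested were called (15). An unadjusted limma p under 0.05 was found for 2 of the 12, Jun and Egr1, and for 10.7% of all. In hippocampus, 0 of 12 were called, where 0.0518% of all were (14), and none had an unadjusted p under 0.05, against 11.8% of all. Averaged over both regions, 0 of 12 were called, against 1.05% of all (284). The same 2 genes had an unadjusted p under 0.05, as did 15.9% of all probe sets. The difference between the freezing differences of the 2 regions, an interaction, was called for 0% of all probe sets, with 1637 of the 27022 at an unadjusted p under 0.05 and a smallest limma adjusted p of 0.706, and 1 of the 12, a probe set of Jun, had an unadjusted p under 0.05. The median log2 difference over the 10 genes was -0.16 in amygdala and -0.06 in hippocampus.

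Jun had the smallest p of the family for freezing. In amygdala it measured 299, 382 and 474 (lowest, median and highest of 6 arrays) in high freezing animals and 241, 288 and 371 in low freezing animals. The groups overlapped, with a log2 difference of 0.34 ± 0.10 (SE), an unadjusted p of 0.00245 and a limma adjusted p of 0.187, which ranged from 0.0888 to 0.410 over the alternatives. The second probe set of Jun gave 0.13 ± 0.08 (SE, limma adjusted p = 0.604). In hippocampus Jun measured 602, 747 and 804 in high freezing animals and 644, 680 and 834 in low freezing animals, a log2 difference of 0.04 ± 0.10 (SE). The difference between the regions, 0.30 ± 0.15 (SE), had a limma adjusted p of 0.824.

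Egr1 measured 812, 1283 and 1706 in amygdala of high freezing animals and 1179, 1575 and 2162 in amygdala of low freezing animals. The log2 difference was -0.37 ± 0.16 (SE) with a limma adjusted p of 0.390. In hippocampus it measured 1217, 1480.4 and 2031 in high freezing animals and 1088, 1796 and 1896 in low freezing animals, a log2 difference of -0.14 ± 0.16 (SE, limma adjusted p = 0.785). Both regions overlapped between the freezing groups.

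Egr3 stood out in the hippocampus by the order of its arrays, not by the test. It measured 1090.1, 1145 and 1308 in high freezing animals and 872, 994 and 1075 in low freezing animals. All 6 high freezing arrays lay above all 6 low freezing arrays, which was so for 0.451% of all probe sets tested (122). The log2 difference was 0.26 ± 0.14 (SE), with a limma adjusted p of 0.484, which ranged from 0.135 (hippocampus fitted alone) to 0.675 over the alternatives without a call. The model takes 1 spread per probe set over all 4 groups, and the log2 SD of Egr3 between arrays was 0.46 and 0.27 in amygdala of high and low freezing animals, and 0.12 and 0.11 in hippocampus. In amygdala Egr3 overlapped, at 335, 589 and 825 in high freezing animals and 477, 652 and 788 in low freezing animals.

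Fos measured 199, 262 and 393 in amygdala of high freezing animals and 229, 326 and 545 in amygdala of low freezing animals. In hippocampus the values were 152, 267 and 432 in high freezing animals and 114, 304 and 535 in low freezing animals. The 95% confidence interval of its log2 difference ran from -0.80 to 0.30 in amygdala and from -0.71 to 0.39 in hippocampus, so that changes of either sign within these intervals were not excluded with 6 arrays a group. For Egr2 the intervals were -1.0 to 0.18 and -0.68 to 0.51, and for Egr4 -0.78 to 0.34 and -0.24 to 0.88. The intervals of Fosl2, Jund and Junb were narrower, within -0.58 and 0.52 in both regions.

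The wider pathway gave no call for freezing either. In each freezing comparison 0 of the 45 other early-response genes, 0 of the 12 partners and 0 of the 22 upstream genes were called by limma, and the genes with the smallest p are given here with their log2 differences. In amygdala these were the early-response genes Nfil3 (-0.60), Btg2 (0.34) and Myc (0.39), the partners Atf4 (-0.20), Mafg (0.17) and Batf3 (-0.25), and the upstream genes Creb1 (-0.20), Rps6ka3 (-0.24) and Mrtfa (-0.18), at adjusted p of 0.186 to 0.606. In hippocampus they were Gadd45g (-0.24), Nfil3 (-0.37) and Fbxo33 (-0.13), Atf4 (-0.21), Mafk (0.35) and Atf7 (0.36), and Mef2c (-0.22), Map2k2 (-0.13) and Mef2a (0.08), at adjusted p of 0.257 to 0.62. Creb1 encodes CREB, and Rps6ka3 a kinase that acts on it. Averaged over both regions they were Nfil3 (-0.49), Mcl1 (-0.14) and Btg2 (0.20), Atf4 (-0.20), Atf7 (0.26) and Ddit3 (-0.18), and Camk4 (-0.29), Mef2c (-0.18) and Rps6ka3 (-0.13). Nfil3, a leucine zipper repressor, and Atf4, a stress-response factor that can pair with AP-1 proteins, came nearest to the threshold there, at adjusted p of 0.0562 and 0.0571. For the interaction they were Bdnf (0.69), Gadd45g (0.33) and Vgf (-0.23), Mafk (-0.44), Mafg (0.32) and Nab1 (-0.19), and Creb1 (-0.20), Elk4 (-0.21) and Rps6ka3 (-0.21), at adjusted p of 0.772 to 0.850. A list of 10 heat shock genes was taken as a possible sign of tissue handling. Whether each of them marks handling was not tested. Averaged over both regions, 2 of the 10, Hspa5 and Hsph1, were called lower in high freezing animals. Over all 12471 genes, 0.545% were called lower and 0.497% higher in that comparison. Of the 10 differences, 9 were below 0.

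The genes differed widely in how much they varied between arrays of one group. Egr2, Fos and Egr4 were the most variable, with residual log2 SDs of 0.57, 0.54 and 0.54, larger than those of 99.3%, 99.1% and 99.0% of all probe sets tested. Among the 1000 probe sets nearest to each in mean level, the shares were 98.7%, 99.4% and 98.9%. Junb, Fosb and Egr1 came next at 0.33, 0.32 and 0.32. Junb and Egr1 were larger than 89.2% and 86.4% of all and than 95.7% and 98.2% of those at a similar level. Fosb reached 86.9% of all probe sets but 50.2% of those at a similar level. Jun, Jund and Fosl2, at 0.19, 0.20 and 0.21, lay near the middle of all probe sets, at 45.1%, 46.1% and 52.8%, but above most of those at a similar level, at 81.7%, 88.7% and 72.0%. Egr3, at 0.28, was above 77.8% of all and 97.6% of those at a similar level.

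Between arrays of one group the r of each pair of Fos, Junb, Egr1 and Egr2 was above 0 in all 4 groups, from 0.459 to 0.972, without any passing the test after adjustment. Fosb also had an r above 0 with each of these genes in all 4 groups. Its lowest values were 0.238 with Fos, 0.446 with Junb, 0.107 with Egr1 and 0.255 with Egr2. Over the 45 pairs of genes in 4 groups of 6 arrays, 180 correlations in all, the median Pearson r of log2(intensity + 16) was 0.283 and 129 were above 0. By group the median was 0.280 in amygdala of high freezing animals, 0.403 in amygdala of low freezing animals, 0.127 in hippocampus of high freezing animals and 0.340 in hippocampus of low freezing animals. No single correlation passed the exact permutation test after adjustment over the 180: 25 had an unadjusted p under 0.05, the smallest adjusted p was 0.231, and the smallest p that 6 arrays allow is 0.00139. Of the 45 pairs, 13 had an r above 0 in all 4 groups and none had an r below 0 in all 4. An r over 0.5 in all 4 groups was found for 4 pairs: Fos with Egr1, Fos with Egr2, Junb with Egr1, and Egr1 with Egr2.

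**Figure D3:**
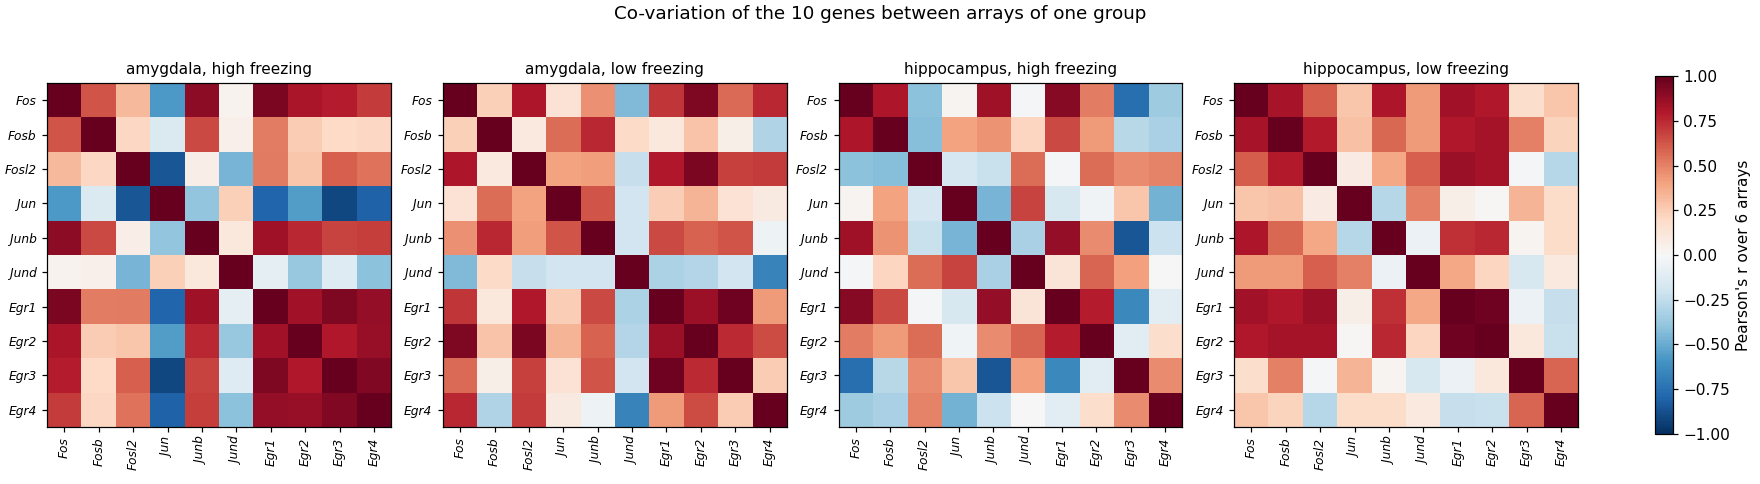
Pearson r between each pair of the 10 genes over the 6 arrays of each group, on log2(intensity + 16), from -1 (blue) to 1 (red). The squares joining Fos, Junb, Egr1 and Egr2 are red in every group, and those of Fosb with these genes are red or pale red. Those of Jun and Jund with Fos, Junb, Egr1 and Egr2 are mixed, and Egr3 is red with Egr1 in amygdala but blue or pale in hippocampus.

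Fos and Egr1 had an r of 0.940 in amygdala of high freezing animals and 0.711 in amygdala of low freezing animals (Spearman's rho 0.943 and 0.714; two-sided exact permutation p = 0.00833 and 0.0986). In hippocampus r was 0.911 in high freezing animals and 0.843 in low freezing animals (rho 0.886 and 0.714; exact permutation p = 0.00833 and 0.0306). The adjusted p of these 4 values lay between 0.231 and 0.439. Without the 2 arrays farthest from the median of Fos, r was 0.964, 0.519, 0.972 and 0.352 in the same order of groups, and without the 2 farthest from the median of Egr1 it was 0.841, 0.736, 0.912 and 0.359. In hippocampus of low freezing animals the relation was weak either way. Across all genes tested, 0.401%, 5.12%, 0.770% and 1.80% had an r to Fos at least as high as that of Egr1.

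Egr1 and Egr2 had an r of 0.840 and 0.856 in amygdala of high and low freezing animals and 0.787 and 0.972 in hippocampus of high and low freezing animals (rho 0.771, 0.829, 0.657 and 0.714; exact permutation p = 0.0333, 0.0292, 0.0708 and 0.0389). The adjusted p was between 0.316 and 0.361. Without the 2 arrays farthest from the median of Egr1 the values were 0.487, 0.981, -0.238 and 0.682. The r in hippocampus of high freezing animals was then negative. Without the 2 arrays farthest from the median of Egr2 they were 0.706, 0.643, 0.712 and -0.393, so that the highest r, in hippocampus of low freezing animals, turned negative. In each hippocampus group the relation thus rests on a few arrays. Fos and Junb had an r of 0.892, 0.459, 0.847 and 0.808 in the same order (rho 0.943, 0.429, 0.771 and 0.829; exact permutation p = 0.0125, 0.326, 0.0389 and 0.0444; adjusted p 0.231 to 0.714). Leaving out the 2 arrays farthest from the median of Fos gave 0.831, 0.735, 0.689 and 0.442. Leaving out the 2 farthest from the median of Junb gave 0.626, -0.242, 0.645 and 0.442.

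Egr3 followed Egr1 in one region and not in the other. In amygdala r was 0.936 in high freezing animals and 0.976 in low freezing animals (rho 0.943 and 1.0; exact permutation p = 0.00833 and 0.00278; adjusted p = 0.231 for both). In hippocampus r was -0.645 in high freezing animals and -0.061 in low freezing animals (rho -0.486 and -0.20; exact permutation p = 0.167 and 0.90). The difference between the regions was not tested. Jun had a median r of 0.070 over its 36 values with the other genes, and Jund of 0.019, where Egr1, Fos and Egr2 had 0.659, 0.587 and 0.568. In amygdala of high freezing animals Jun ran against Egr3, with an r of -0.908 (rho -0.943, exact permutation p = 0.0167, adjusted p = 0.231). In the other 3 groups the r of this pair was between 0.144 and 0.340.

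**Figure D4:**
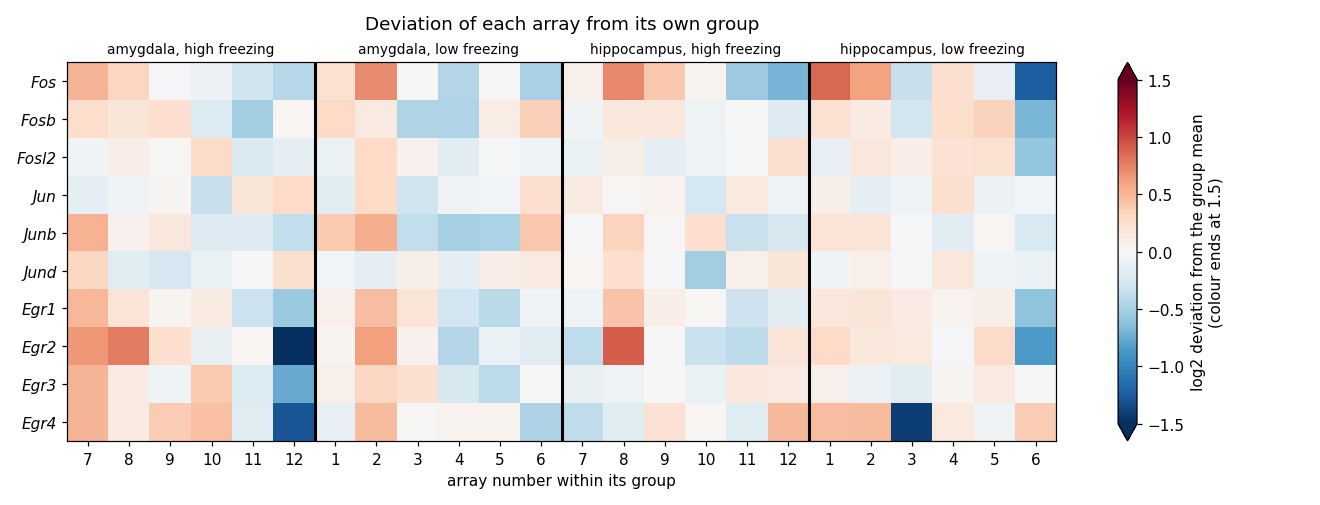
Deviation of each array from the mean of its own group in log2(intensity + 16), for the 10 genes (rows) on the 24 arrays (columns, by array number within the group); the colour scale ends at 1.5 in either direction. Amygdala high array 12 and hippocampus low array 6 are low for Fos, Junb, Egr1 and Egr2 together, and amygdala low array 2 and hippocampus high array 8 are high for these genes.

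A few arrays carried many of the extremes. Amygdala high array 12 was the lowest of its group for 6 of the 10 genes (Fos, Junb and all 4 Egr genes) and the highest for Jun. Amygdala high array 7 was the highest of that group for 7 genes. Among the amygdala arrays of low freezing animals, array 2 was the highest for 8 genes. Hippocampus high array 8 was the highest of its group for 5 genes (Fos, Junb, Jund, Egr1 and Egr2), and hippocampus low array 6 was the lowest for 7 (Fos, Fosb, Fosl2, Junb, Jund, Egr1 and Egr2). With each array left out in turn, the family had 1 probe set higher in amygdala and 0 called for freezing every time. The count lower in amygdala was 5, or 6 with Egr1 added without amygdala high array 7 or hippocampus low array 6.

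Genes outside the family with the most similar pattern were ranked by Pearson r of their deviations from the group means over all 24 arrays, as a description without a test. The 5 most like Fos were Arc (0.863), Dusp1 (0.822), Sertad1 (0.756), Nr4a1 (0.748) and Klf4 (0.737). Arc ranked above all other genes tested, with an r of 0.952, 0.817, 0.906 and 0.868 in amygdala of high and low freezing animals and hippocampus of high and low freezing animals. Dusp1 encodes an inducible phosphatase of MAP kinases, Nr4a1 an inducible nuclear receptor and Klf4 a zinc finger factor. Egr1 itself ranked 3 for Fos, at 0.790. The 5 most like Egr1 outside the family were Nr4a1 (0.812), Klf10 (0.785), Arc (0.758), Ski (0.756) and Mest (0.755), and Egr2 ranked 1 at 0.828. For Egr2 they were Fam3c (0.834), Sla (0.774), Nr4a1 (0.760), Znhit1 (0.756) and Aff3 (0.747).

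Jun and Jund had other neighbours. The genes most like Jun were Rnf214 (0.724), Adcy1 (0.693), Alox5ap (0.690), Asap2 (0.676) and Evl (0.674). Adcy1 encodes a calcium-stimulated adenylyl cyclase of neurons. For Jund they were Gmps (0.838), Ankrd50 (0.833), Zfp106 (0.799), Prdm2 (0.756) and Batf3 (0.740), of which Batf3 encodes a leucine zipper partner of Jun proteins. The r of Fos to Jun over the 24 arrays was -0.001, and to Jund it was 0.021.

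An r to Fos over 0.5 in all 4 groups was found for 16 of 12461 genes outside the family (0.128%), among them 3 of the 45 other early-response genes, Arc, Dusp1 and Nr4a1, and 1 of the 10 heat shock genes, Dnajb1. For Egr1 it was 22 of 12461 genes (0.177%), with 4 of the 45, Arc, Nr4a1, Klf10 and Mcl1. For Jun it was 10 of 12461, with 0 of the 45. Of the 45 early-response genes, 34 and 33 had an r to Fos above 0 in amygdala of high and low freezing animals. In hippocampus of high and low freezing animals 34 and 36 did. The median r to Fos over all genes tested was -0.004, 0.061, 0.021 and -0.007 in the same order of groups.

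Markers of neighbouring brain tissue ran against some genes of the family, among them Egr1, in 3 of the groups, and none of these values passed after adjustment. The mean log2 level of 10 genes that mark thalamus and hypothalamus ran against Egr1, with an r of -0.944 and -0.888 in amygdala of high and low freezing animals and -0.873 in hippocampus of high freezing animals, but 0.301 in hippocampus of low freezing animals (rho -0.943, -0.771, -0.771 and -0.029; exact permutation p = 0.00694, 0.025, 0.0264 and 0.661). Without the 2 arrays farthest from the median of the marker level r was -0.803, -0.812, -0.553 and 0.683. With Egr3 in amygdala of high freezing animals r was -0.996 (rho -1.0, exact permutation p = 0.00139, the smallest possible) and with Jun there it was 0.925 (rho 0.943, exact permutation p = 0.0125). The other genes were mixed. Fos (-0.785, -0.696 and -0.890), Junb (-0.683, -0.874 and -0.687) and Egr2 (-0.783, -0.850 and -0.674) also had an r below 0 in amygdala of high and low freezing animals and hippocampus of high freezing animals. In hippocampus of high freezing animals Egr3 had 0.615, Egr4 0.496 and Fosl2 0.126, Jun had -0.419 in amygdala of low freezing animals and -0.285 in hippocampus of high freezing animals, and Jund lay between -0.364 and 0.164 in these 3 groups. The summed intensity of these markers was 1820 to 6468 in amygdala of high freezing animals, highest in array 12 and lowest in array 7, and 2624 to 4967 in amygdala of low freezing animals, lowest in array 2. In hippocampus it was 1000.4 to 1377 in high freezing animals, lowest in array 8, and 957 to 1104 in low freezing animals. Of the 10 markers, 8, 10, 9 and 5 had an r to Egr1 below 0 in amygdala of high and low freezing animals and hippocampus of high and low freezing animals.

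The mean log2 level of 10 markers of dentate granule cells ran against Fos, with an r of -0.847, -0.319, -0.653 and -0.911 in the same order (rho -0.829, -0.371, -0.771 and -0.886; exact permutation p = 0.0333, 0.544, 0.158 and 0.0139). Not all markers shared this sign: 6, 6, 8 and 9 of the 10 had an r to Fos below 0, and 4, 4, 2 and 1 above 0. The ratio of the 3′ to the 5′ Gapdh control probe sets, a measure of RNA integrity, lay between 0.736 and 0.896 over all arrays. Its r to Egr1 was 0.725, 0.175, 0.934 and 0.513 (rho 0.543, 0.086, 0.829 and 0.029; exact permutation p = 0.0986, 0.740, 0.0125 and 0.356), and without the 2 arrays farthest from its median 0.913, -0.133, 0.246 and -0.974. The same ratio for the actin control probe sets lay between 1.52 and 2.10 over all arrays. The r of the actin ratio to Egr1 was 0.638, 0.602, 0.048 and -0.030. The mean log2 level of the early-response genes outside the family had an r above 0 to Fos and Egr1 in all 4 groups. In the same order r was 0.923, 0.738, 0.978 and 0.968 to Fos and 0.956, 0.692, 0.969 and 0.904 to Egr1. To Jun it was of both signs, at -0.759, 0.742, -0.054 and 0.069. The level of the basolateral amygdala and claustrum markers had an r to Egr1 of 0.932, 0.107, -0.622 and -0.009. Such values were computed for 20 array measures and marker lists against the 10 genes in each of the 4 groups. Of these 800 correlations 72 had an exact permutation p under 0.05 and 0 passed after adjustment, with a smallest adjusted p of 0.278. The part of tissue makeup, RNA integrity or handling in the co-variation of the family was not tested.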

How the data were processed

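Total RNA of 24 brain samples was hybridised to 1-colour Affymetrix mouse arrays. The authors deposited a linear intensity for each probe set and array; the software and scaling behind it are not given in the sources used here. The number of arrays sets the precision.

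Controls (64) and the dimmest 40% of probe sets by mean log2 value were dropped. A model with 1 mean per group (20 residual degrees of freedom) was fitted to log2(intensity + 16) by limma 3.58.1 (R 4.3.3), its prior following intensity. This scale understates changes of dim probe sets. Adjusted p of group differences are limma's, two-sided, corrected by Benjamini and Hochberg across 27022 probe sets, with 0.05 as the threshold. The fit was tested on simulated arrays. By the platform annotation, 34958 probe sets carry 1 symbol, 932 several and 9211 none. Promoters came from RefSeq (GRCm38.p6).

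Correlations used the brightest probe set kept of each gene and two-sided exact permutation over all 720 pairings (Python 3.11.15, numpy 2.4.6). Arrays 1 to 6 are low and 7 to 12 high freezing in both regions; equal numbers were not treated as pairs.

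The family, the gene lists and the tests were chosen with earlier results of these data known. Named are all members, the up to 6 genes per list and comparison with the smallest p past the threshold (3 where none passed), and the 5 genes most like Fos, Jun, Egr1, Egr2 and Jund. The basolateral amygdala markers, Dnajb1, Hspa5, Hsph1 and Mcl1 in the count for Egr1 were named after their values were seen. Alternatives were other offsets, quantile normalization, median centring, other filters and priors, array weights, regions fitted alone, a replicate block, 1 probe set per gene and each array left out.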

Additional observations from a re-analysis of the deposited data

Results flagged for a closer look

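In 5 of 60 sets of 6 values (15 probe sets in 4 groups), 1 array lay far from the other 5 by Dixon's criterion on log2(intensity + 16), and all 5 were low values. Chance alone gives about 1 in 20 such sets. Egr1 was at 1088 on hippocampus low array 6, where the other 5 arrays of the group read 1726 to 1896. On the same array Egr2 was at 19.3, against 47.2 to 62.9 on the others. Egr2 was at 2.26 on amygdala high array 12, the other arrays of that group lying between 35.2 and 78.7. Jund read 451 on hippocampus high array 10, with the others between 648 and 783. Egr4 read 10.4 on hippocampus low array 3, with the others between 51.4 and 81.4. None of the called differences of the family between the regions was lost when any of these arrays was left out.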

How the results depend on the processing

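The family had 1 probe set higher in amygdala and 0 called for each freezing comparison and the interaction under every alternative run. The count lower in amygdala, 5, was 6 with median centring, without amygdala high array 7 and without hippocampus low array 6, where Egr1 was added, and 4 with 1 probe set per gene, where the second probe set of Jun is not counted. The median correlation within groups, 0.283, lay between 0.257 and 0.315, with 0 pairs past the threshold. The calls of Fosl2, Jun, Junb, Jund and Egr3 kept their direction under all 35 alternatives. The other changes of sign were in small differences that no setting called. The Egr2 difference between amygdala and hippocampus was 0.03 and became -0.071 with an offset of 1, -0.039 with quantile normalization and -0.042 with median centring. That of Egr4 was 0.02 and became -0.053 with quantile normalization and -0.055 with median centring. With quantile normalization the amygdala freezing difference of Fosb was -0.0039. Median centring gave -0.00256 for it, -0.013 for Jun in hippocampus and -0.00029 for Jund averaged over both regions. With 1 array left out at a time, the Egr2 regional difference ranged from -0.053 to 0.193 and that of Egr4 from -0.121 to 0.148. The amygdala freezing differences ranged from -0.050 to 0.144 for Fosb, from -0.229 to 0.023 for Egr3 and from -0.318 to 0.040 for Egr4. The hippocampal ones ranged from -0.409 to 0.0082 for Fos and from -0.095 to 0.060 for Jund. Averaged over both regions they ranged from -0.081 to 0.025 for Junb and from -0.090 to 0.179 for Egr4, and the interaction ranged from -0.258 to 0.159 for Fos and from -0.131 to 0.044 for Fosl2. Without amygdala high array 12 the Egr2 freezing difference in amygdala was -0.09 in place of -0.41, and without hippocampus low array 6 that of Fos in hippocampus was -0.41 in place of -0.16; neither was called. The cause of these shifts was not tested. Over all probe sets, the 14 calls for freezing in hippocampus ranged from 0 to 33 with 1 array left out (0 without hippocampus high array 11 or hippocampus low array 5), were 31 with array weights, 22 with the region fitted alone, 9 with an offset of 1 or without the dimmest 60%, 6 with no filter, 5 with a prior without trend and 4 with 1 probe set per gene. The 15 in amygdala ranged from 2 (without amygdala low array 1) to 56 (without amygdala low array 6) and were 0 with the region fitted alone, 2 with the prior without trend and 7 with 1 probe set per gene. The 284 averaged over both regions ranged from 160 (without hippocampus low array 5) to 381 (without amygdala low array 6) and were 779 with median centring, 171 with the prior without trend and 137 with 1 probe set per gene.

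A replicate block, with the array number shared by both regions as a random term, gave the main counts for the family, 5 lower, 1 higher and 0 for freezing. Over all probe sets it gave 13963 calls between the regions, 20 for freezing in hippocampus, 16 in amygdala and 256 averaged. Deviations of same-numbered arrays of the 2 regions correlated between -0.079 and 0.087 over probe sets, none over 0.1, and 4 of 12 hippocampus arrays correlated best with their own number. The numbers were not taken to pair the arrays, and the consensus correlation was 0.026. No median correlation was computed with single arrays left out. Each r given without the 2 farthest arrays rests on the remaining arrays of the 6 and was not tested. Fosb, at a mean of 24.4, lies close to the filter at 23.4.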

Other observations

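Same-numbered arrays of the 2 regions were also compared gene by gene, 20 correlations over 6 numbers each. Egr3 ran in opposite directions, with an r of -0.871 in high freezing animals and -0.802 in low freezing animals (rho -0.943 and -0.771; exact permutation p = 0.0125 and 0.0597; adjusted p = 0.25 and 0.398). Without the 2 arrays farthest from the median of the amygdala values r was -0.895 and -0.717. Fos ran in the same direction, with an r of 0.741 and 0.668 in high and low freezing animals (rho 0.829 and 0.714; exact permutation p = 0.0903 and 0.1375; adjusted p = 0.451 and 0.509), and 0.980 and 0.278 without the 2 farthest arrays. Jund had an r of -0.819 in low freezing animals (rho -0.771; exact permutation p = 0.0389; adjusted p = 0.389), which was -0.139 without the 2 farthest arrays, and 0.218 in high freezing animals. None of the 20 passed after adjustment, and the labels do not say that equal numbers come from 1 animal.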
